A study of Mus musculus with 12 samples.

Results

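The replication-dependent histone genes were examined as 67 of the 21938 protein-coding genes of GENCODE release M21 on mouse genome build mm10. They were taken by name, as every protein-coding gene whose symbol starts with Hist1h, Hist2h, Hist3h or Hist4h. No measured value entered the choice. The set holds 6 linker histone H1 genes, 18 H2A genes, 18 H2B genes, 12 H3 genes and 13 H4 genes. The large Hist1 cluster on chromosome 13 holds 54 of them, and Hist2 on chromosome 3 holds 10. Hist3 on chromosome 11 holds 2, and Hist4 on chromosome 6 holds 1.

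These genes supply the histones that package newly copied DNA, and they are transcribed most strongly while cells pass through S phase. H2A, H2B, H3 and H4 form the nucleosome core, and H1 binds the linker DNA between nucleosomes. Their messages end in a conserved stem-loop in place of a poly(A) tail, and dividing progenitors need far more of them than neurons that have left the cell cycle, which draw on replacement histone genes instead.

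Accessible chromatin was measured by ATAC-seq during the differentiation of mouse embryonic stem cells (ESCs) into spinal motor neurons, in 12 samples that form 6 groups of 2. Embryoid bodies (EBs) and day 2 progenitors came from the Ainv15(iCre) line, and the progenitors had received 1 µM all-trans retinoic acid (RA) and 0.5 µM smoothened agonist (SAG) from day 0. The iHoxc6, iHoxc9 and iHoxc10 neurons, from the Ainv15(iFlag.Hoxc6), Ainv15(iFlag.Hoxc9) and Ainv15(iFlag.Hoxc10) lines, were treated alike and then carried to day 4 with 3 µg/mL doxycycline (Dox) for the last 48 h, which switched on the tagged Hox gene. The No Dox control neurons received RA and SAG to day 4 without Dox, and their label names the Ainv15(iFlag.Hoxc6) line. The lines are isogenic derivatives that express the tagged factor from a Dox-inducible transgene, so every induced group is 1 line. All samples are whole embryoid bodies.

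Each group is represented by a single list of accessible domains made from both of its samples. A domain is a stretch of the genome, given by its start and end, with no height and no read count, so the sequencing depth is unknown and no difference between groups can be set against the spread between replicates. No test was run, and every comparison below is between 2 lists. The 6 lists held 56232 to 94875 domains covering 17.8 to 29.7 Mb. The No Dox list covered the most and the iHoxc9 list the least. The smallest gap between domains was 201 bp in 4 lists, 103 bp in the day 2 list and 37 bp in the No Dox list, so neighbouring domains were kept apart at different distances. The No Dox libraries were also recorded separately from the others. The name of their list gives day 6 and a p-value limit, where the label gives day 4 and no limit, and the label was followed. Differences of day, line, recording, threshold and list making cannot be told apart from the effect of Dox. The pluripotency genes Pou5f1 and Nanog had a domain at the transcription start site (TSS) in EBs alone. Zfp42 also had one in day 2 progenitors, Klf4 had one in every list and Esrrb in none. All 5 motor neuron markers had one in every list except for Chat, which had none in iHoxc9 neurons. Their median covered bases within 1 kb of the TSS were 1011, 801, 299 and 621 bp in No Dox, iHoxc6, iHoxc9 and iHoxc10 neurons. From No Dox to iHoxc9 neurons Lhx3 went the other way, from 231 to 364 bp, and Isl1 went from 1011 to 888 bp. The medians of 4 interneuron markers were 650.5, 388, 307 and 360 bp in the same order. Those of 5 ventral progenitor markers were 1389, 1031, 1059 and 901 bp. The part of these markers in the histone values below was not tested. The coding sequence of Hoxc6 was covered over 77.2% of its length in iHoxc6 neurons and that of Hoxc10 over 45.6% in iHoxc10 neurons, with 0% in the No Dox list for both. That of Hoxc9 was covered over 60.0% in iHoxc9 neurons, but also over 62.7% in day 2 progenitors.

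The promoters are shown first because the domains sit on them. RefSeq promoters (assembly GRCm38.p6), 250 bases before to 50 after each start, were matched for 62 of the 67 genes. Capitals mark 4 motifs on either strand, except that TATAAA is marked on the gene's own strand alone in the stretches of single genes. The motifs are TATAAA, which as a core promoter box lies shortly before a start, and CCAAT, a common upstream activator box. They are also the octamer ATTTGCAT, which POU factors bind, and GTCCGC, the core of the site recognized by the H4 promoter factor HINFP. The following stretches end just before the RefSeq start of an H1, an H3 and an H4 gene with fewer covered bases in iHoxc9 than in No Dox neurons. In Hist1h3i a GTCCGC and a CCAAT on opposite strands share a base, and its TATAAA lies far from the start. They lie on the minus strand at chr13:21780626-21780875, chr13:21783398-21783647 and chr13:23698459-23698708 and are written 5′ to 3′ along the gene.
Hist1h1b: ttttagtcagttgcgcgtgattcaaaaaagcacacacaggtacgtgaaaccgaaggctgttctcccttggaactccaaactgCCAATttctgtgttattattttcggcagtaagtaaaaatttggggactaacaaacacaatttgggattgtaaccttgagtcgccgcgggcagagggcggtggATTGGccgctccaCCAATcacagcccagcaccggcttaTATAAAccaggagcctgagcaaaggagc
Hist1h3i: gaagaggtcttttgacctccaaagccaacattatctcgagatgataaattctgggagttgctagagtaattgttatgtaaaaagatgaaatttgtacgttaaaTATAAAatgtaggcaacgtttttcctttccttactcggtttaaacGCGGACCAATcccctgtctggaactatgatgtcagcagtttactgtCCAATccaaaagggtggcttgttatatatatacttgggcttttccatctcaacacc
Hist1h4c: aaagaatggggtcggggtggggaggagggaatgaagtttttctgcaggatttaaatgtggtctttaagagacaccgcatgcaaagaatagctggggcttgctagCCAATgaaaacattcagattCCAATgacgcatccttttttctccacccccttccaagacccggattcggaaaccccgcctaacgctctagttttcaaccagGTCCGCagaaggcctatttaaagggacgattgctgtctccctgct

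The regions of 2 divergent pairs are shown because a single stretch serves both genes of each. The first lies between the starts of Hist1h2ac and Hist1h2bc, at chr13:23683949-23684198. It was covered whole in every list, while the windows of its 2 genes had the largest rises from EBs to day 2 progenitors, outside this stretch. The second lies between the testis histone genes Hist1h2ba and Hist1h2aa, at chr13:23934187-23934431 with 30 bases left off at each end, and lost its domain during differentiation. Both are written along the plus strand.
Hist1h2ac to Hist1h2bc: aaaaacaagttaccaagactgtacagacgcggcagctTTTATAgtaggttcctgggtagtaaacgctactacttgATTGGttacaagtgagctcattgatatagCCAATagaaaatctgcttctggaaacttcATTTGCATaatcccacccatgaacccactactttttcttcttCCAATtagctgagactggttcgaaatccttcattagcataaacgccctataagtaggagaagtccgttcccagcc
Hist1h2ba to Hist1h2aa: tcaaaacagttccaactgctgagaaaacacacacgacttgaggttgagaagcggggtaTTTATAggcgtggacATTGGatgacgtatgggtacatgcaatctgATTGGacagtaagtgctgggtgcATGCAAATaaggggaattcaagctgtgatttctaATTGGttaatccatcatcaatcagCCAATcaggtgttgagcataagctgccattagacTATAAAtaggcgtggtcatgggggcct

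A CCAAT box on either strand was present in 53 of the 62 matched promoters (85.5%), against 37.4% of 32851 RefSeq promoters of the same length. It was found in every matched H1, H2A, H2B and H3 promoter and in 3 of 12 H4 promoters. TATAAA on the gene's own strand was present in 30 (48.4%, against 8.32%). In 17 promoters it lay within 50 bases of the start, with its first base at a median of -32 bases from the start. The octamer was present in 14 (22.6%, against 1.74%), of which 7 were H2A and 7 were H2B promoters. GTCCGC was present in 20 (32.3%, against 9.44%), including 9 of 12 H4 promoters. These shares describe letters, not bound sites. The letters TAAT, a core shared by many homeodomain sites, were in 67.7% of histone promoters and in 58.0% of all promoters. TTTAT, a core favoured by posterior Hox proteins, was in 75.8%, against 40.0%, but TATAAA contains it when read on the other strand. Outside TATAAA it was found in 50% of histone promoters, against 33.5%. The median GC content was 45.3%, below the 52.7% of all RefSeq promoters, while CpG dinucleotides were more frequent, at 36.7 against 23.3 per kb.

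The 3′ stem-loop was used to check the set from sequence alone. A stem of 6 base pairs with a loop of 4 bases was found within 150 bases of the stop codon in 63 of the 67 genes. No such stem-loop was found in that window for Hist2h2be, Hist1h2an, Hist1h3g and Hist1h4a. The core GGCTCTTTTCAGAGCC occurred in 41 genes, none of them an H4 gene. The core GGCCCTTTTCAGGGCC occurred in 8 genes, all of them H4. A linker histone and an H4 gene show the difference, with the stem and loop in capitals.
Hist1h1b: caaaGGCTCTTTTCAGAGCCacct
Hist1h4c: aaaaGGCCCTTTTCAGGGCCaccc

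Nearly all histone genes were accessible at every stage. A gene was counted as accessible when at least 1 base of the 2001-base window reaching 1 kb to each side of its TSS lay in a domain. In EBs 60 of 67 histone genes were accessible (89.6%, 95% Wilson interval 80.0 to 94.8), against 65.6% of all protein-coding genes. In day 2 progenitors the count was 63 (94.0%, against 63%), the highest of the 6 lists. It was 59 in No Dox neurons (88.1%, against 62.1%), 58 in iHoxc6 neurons (86.6%, against 62.3%), 56 in iHoxc9 neurons (83.6%, against 59.3%) and 57 in iHoxc10 neurons (85.1%, against 59%). The intervals of the 6 shares overlapped. A domain was present in every list at 56 histone genes (83.6%), whereas 56.1% of all genes had one in every list. The intervals count genes only and carry no error of the measurement.

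The exceptions fell into a few kinds. Hist1h1d, which encodes a somatic linker histone, and Hist1h1t, a linker histone gene of the testis, had no domain in any list. The annotated start of Hist1h1d lies 1828 bp from its coding start, so its window misses the coding region. Its RefSeq start lies 58 bp from the coding start, so the lack of a domain does not describe that promoter. With windows at the coding start 61, 64, 60, 59, 57 and 58 of the 67 genes had a domain in EBs, day 2, No Dox, iHoxc6, iHoxc9 and iHoxc10. Hist1h2ao and Hist1h2bq also had no domain in any list, and every word of 32 bases in their shared window occurs elsewhere in the genome. The same is true of Hist1h2ap and Hist1h2br, which had 35 bp covered in day 2 progenitors and 0 in the other 5 lists. Among the others, Hist2h3c1 had no domain in EBs, iHoxc9 or iHoxc10 neurons, and Hist1h4m had none in the 3 induced groups. Hist1h4b, with 10.96% of its words repeated, had none in iHoxc9 neurons alone.

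**Figure D1:**
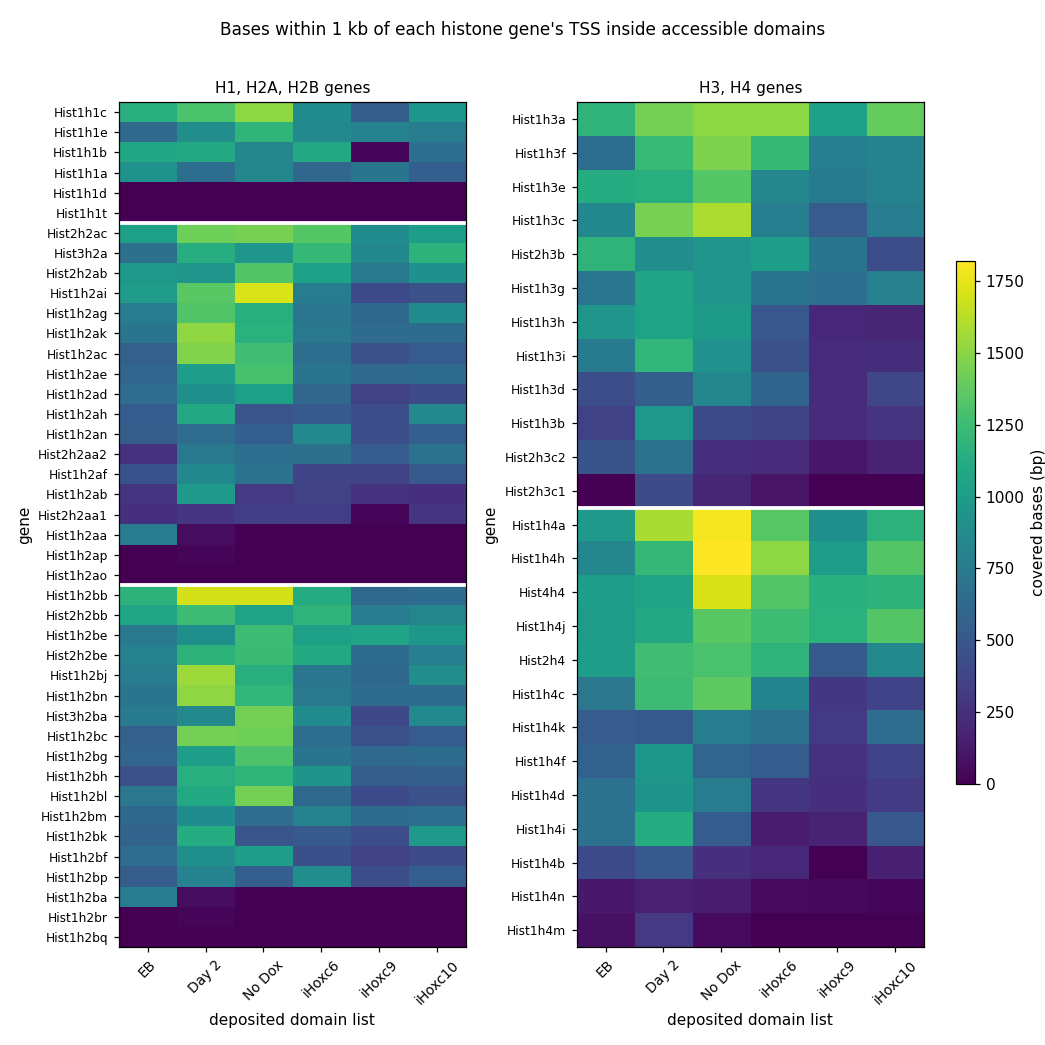
Covered bases (colour, bp) within 1 kb of the TSS of each of the 67 histone genes (rows, grouped by class and ordered by mean) in the 6 domain lists (columns). Colours are brightest in the day 2 and No Dox columns, darkest in the iHoxc9 column, and at 0 throughout for Hist1h1d, Hist1h1t, Hist1h2ao and Hist1h2bq.

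The amount of accessible sequence varied more than its presence. The median histone gene had 671 bp of its window covered in EBs, 1017 bp in day 2 progenitors and 949 bp in No Dox neurons. With the factors induced, it had 700 bp (Hoxc6), 440 bp (Hoxc9) and 547 bp (Hoxc10). Over all protein-coding genes the medians were 432, 474, 532, 428, 273.5 and 352 bp in the same order. Of the 63 histone genes with a domain in some list, 28 were covered most in day 2 progenitors and 28 in No Dox neurons. The lowest value fell in iHoxc9 neurons for 44, ties with other lists included, such as the testis pair at 0 bp in every day 4 list. The total over histone windows was 61274 bp in day 2 progenitors and 29862 bp in iHoxc9 neurons. The bases covered genome-wide had almost the same order across lists as this total, with No Dox and day 2 exchanged, so the histone values moved with the size of the lists. The part of list size in the values was not tested. In these mixed cultures a smaller share of dividing cells and a narrower domain in every cell cannot be told apart.

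**Figure D2:**
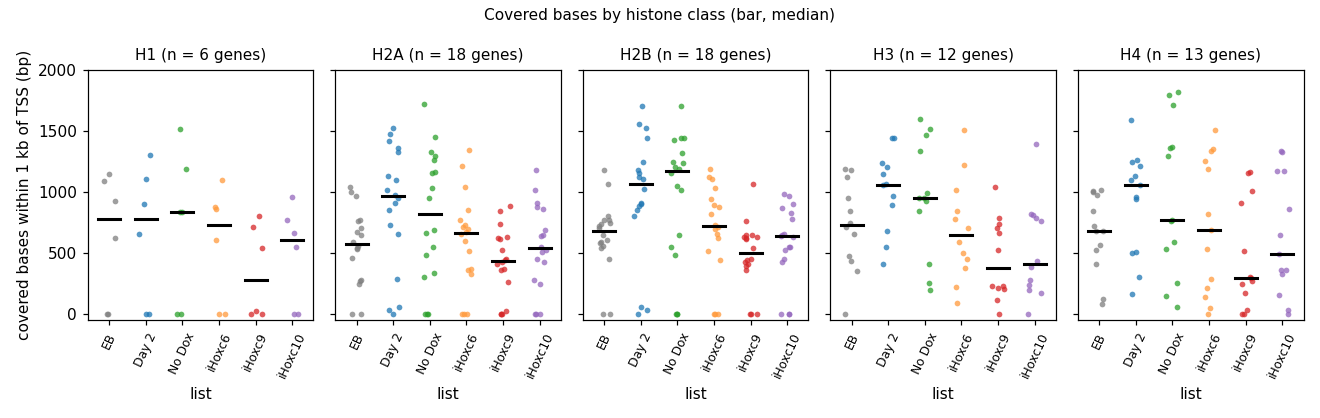
Covered bases within 1 kb of the TSS (y axis, bp) for every histone gene (points) in each domain list (x axis), with 1 panel per class and the class median as a bar. The H4 median drops from 769 bp in the No Dox list to 296 bp in the iHoxc9 list, and the H2B median from 1170 to 496 bp.

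Among the linker histone genes, Hist1h1c had the highest mean over the 6 lists, 1055 bp. It had 1145 bp covered in EBs, 1302 bp in day 2 progenitors, 1511 bp in No Dox neurons. The iHoxc6, iHoxc9 and iHoxc10 neurons had 876, 538 and 957 bp. Hist1h1b had 1089, 1105, 834, 1097, 23 and 664 bp in the same order, so in iHoxc9 neurons only a remnant of 23 bp was left at a promoter that was open in the other 5 lists. Hist1h1e had 625 bp in EBs, 897 bp in day 2 progenitors and 1189 bp in No Dox neurons, and 861, 805 and 768 bp in the induced groups. Hist1h1a differed from most histone genes, being covered most in EBs, at 928 bp, and less in day 2 progenitors, at 655 bp. From No Dox to iHoxc9 neurons 2 of 6 H1 genes, Hist1h1b and Hist1h1c, were lower by at least 2-fold, against 15.7% of all genes.

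H2A and H2B genes mostly lie head to head. There were 13 divergent pairs within the set, 12 of them an H2A and an H2B gene, with a median of 267 bases between the 2 starts (175 to 659). A single domain covered both starts in 10 pairs in EBs and No Dox neurons and in 9 pairs in each other list. In the 9 H2A and H2B pairs concerned, every base between the starts was covered in every list. None of the 6 lists had a base covered between the starts of the 2 fully repeated pairs, Hist1h2bq with Hist1h2ao and Hist1h2ap with Hist1h2br. Because paired genes share this stretch, their windows overlap and their values are not independent. Hist1h2ak and Hist1h2bn both had 708 bp in EBs and 1520 bp in day 2 progenitors, whereas Hist1h2bl and Hist1h2ai had 722 and 1001 bp in EBs.

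Within these classes Hist1h2ai had 1001 bp covered in EBs, 1356 bp in day 2 progenitors and 1718 bp in No Dox neurons. In the induced groups it had 772, 406 and 452 bp in iHoxc6, iHoxc9 and iHoxc10 neurons. Hist1h2bb went from 1703 bp in No Dox to 1121, 628 and 634 bp. Hist1h2bk, paired with Hist1h2ah, had 482 bp without Dox and 513, 429 and 986 bp in iHoxc6, iHoxc9 and iHoxc10 neurons, and was the only histone gene higher by 2-fold in any induced group. The testis pair Hist1h2aa and Hist1h2ba, which encode H2A and H2B of male germ cells, had 767 bp in EBs, 60 bp in day 2 progenitors and 0 bp in all 4 day 4 lists. The annotated start of Hist1h2be lies 35168 bp from its coding start, inside Hist1h1e, so its values describe that neighbourhood.

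Among H3 genes, Hist1h3a had the highest mean of the whole set, 1346 bp. It had 1181, 1440 and 1512 bp in EBs, day 2 progenitors and No Dox neurons, and 1509, 1043 and 1389 bp in iHoxc6, iHoxc9 and iHoxc10 neurons. Hist1h3c fell from 1593 bp in No Dox to 780, 525 and 763 bp. Hist1h3i, whose promoter is shown above, went from 923 bp to 449, 215 and 241 bp. Of the 12 H3 genes, 3, 6 and 6 were lower by 2-fold in iHoxc6, iHoxc9 and iHoxc10 neurons, against 5.92, 15.7 and 10.6% of all genes. The 2 near-identical genes Hist2h3c1 and Hist2h3c2, with 80.6% and 79.6% of their words repeated, were among those 6 in iHoxc9 neurons and are uncertain.

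The means of the H4 genes ranged from 73.5 bp at Hist1h4m to 1297 bp at Hist1h4a. Hist1h4a, Hist1h4h, Hist4h4 and Hist1h4j were, after Hist1h3a, the genes with the highest means, at 1297, 1286, 1242 and 1199 bp, and none of the 4 was lower by 2-fold in an induced group. Hist1h4j even kept 1254, 1159 and 1332 bp in iHoxc6, iHoxc9 and iHoxc10 neurons, against 1357 bp without Dox. At the other end, Hist1h4c went from 1368 bp in No Dox to 821, 296 and 363 bp, and Hist1h4d from 769 to 289, 242 and 324 bp. In iHoxc9 neurons 9 of 13 H4 genes were lower by 2-fold, the highest share of any class, against 15.7% of all genes, with a median ratio of 0.402 to No Dox, against 0.704. The 9 include Hist1h4m, from 56 to 0 bp, and Hist1h4n, from 144 to 36 bp, which have over 90% of their words repeated and are uncertain. The corresponding median ratios were 0.517 for H1, 0.546 for H2A, 0.522 for H2B and 0.536 for H3. The H4 lead was very small against day 2 progenitors. The median ratios of iHoxc9 neurons to them were 0.410 for H4, 0.412 for H3, 0.435 for H2A, 0.460 for H2B and 0.655 for H1. There 8 of 13 H4, 11 of 18 H2A, 11 of 18 H2B, 7 of 12 H3 and 2 of 6 H1 genes were lower in iHoxc9 neurons, against 13.8% of all genes. In iHoxc10 neurons 4 of 13 H4 and 6 of 12 H3 genes were lower than in No Dox, against 10.6% of all genes.

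The domains were narrow and centred upstream of the start. Counting from the TSS, with upstream negative, coverage peaked at a base between -102 and -79 bp, where 77.6 to 83.6% of histone genes were covered, depending on the list. Over all genes the peak lay between -1 and 23 bp and reached 48.4 to 54.0%. Some annotated histone starts are the coding start itself, such as those of Hist1h2bl and Hist1h3i, whose RefSeq starts lie 40 and 27 bp upstream. At 26 histone genes the window also holds the TSS of another histone gene. The part of both in the peak position was not tested. The median width of domains touching a histone window was 336.5 bp in EBs, 432.5 bp in day 2 progenitors and 420 bp in No Dox neurons. In iHoxc6, iHoxc9 and iHoxc10 neurons it was 405, 301.5 and 430 bp. Domains at promoters in general were wider, with medians of 566, 734, 827, 662, 564 and 685.5 bp.

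Differences between lists were smaller just upstream of the TSS than farther upstream or downstream of it. In the 250 bp upstream of the TSS, mean coverage of histone genes was 72.4% in EBs, 76.9% in day 2 progenitors, 76.4% in No Dox and 65.3% in iHoxc9 neurons. In the first 250 bp downstream it was 54.6, 66.9, 64.7 and 38.9%, and from 250 to 499 bp downstream 27.1, 48.5, 43.5 and 13.5%. Over all genes the downstream values were 50.05, 51.4, 51.6 and 44.5% in the nearer and 34.2, 40.2, 44.0 and 30.2% in the farther stretch. Since 63 of 67 histone genes have their coding sequence in 1 segment near the start, the downstream stretch is largely gene body. Of the 26841 coding bases of the set, 42.3% were covered in EBs, 57.4% in day 2 progenitors and 55.2% in No Dox neurons. The share was 41.7, 24.3 and 34.9% in iHoxc6, iHoxc9 and iHoxc10 neurons.

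**Figure D3:**
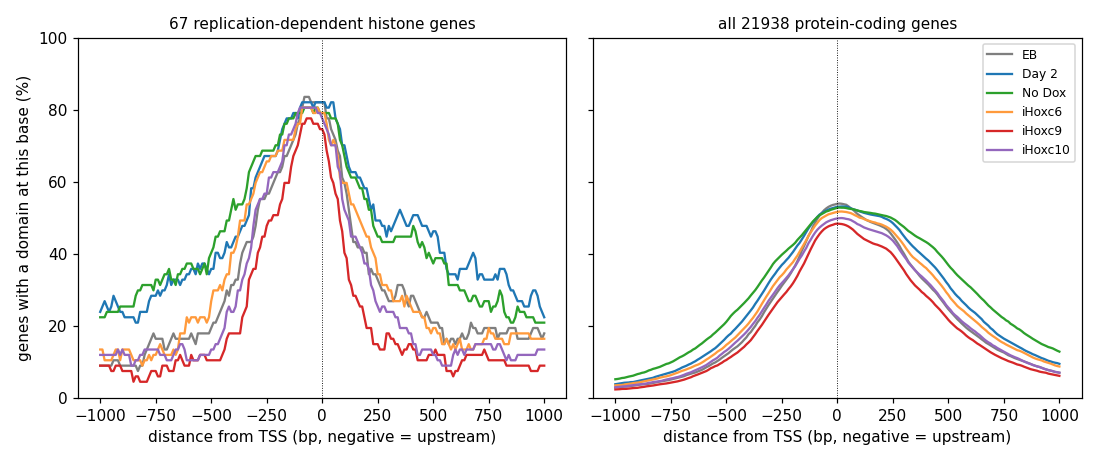
Percent of genes with a domain (y axis) at each distance from the TSS (x axis, bp, negative upstream) for the 67 histone genes (left) and all 21938 protein-coding genes (right), with 1 line per domain list. The histone curves meet near 80% just upstream of the TSS and separate on both sides, with day 2 and No Dox above and iHoxc9 below the rest.

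The first comparison is from EBs to day 2 progenitors of the same line, which had received RA and SAG. There was no day 2 group without them, so RA and SAG cannot be told apart from time in culture. Covered bases were more in day 2 progenitors at 57 of 67 histone genes and fewer at 6. Over all genes 45.3% had more and 22.0% fewer, while 30.3% had no domain in any list. By a 2-fold threshold 14 were higher (20.9%), against 6.54% of all genes, and 2 were lower, against 7.75%. Among genes with a domain in either list, the shares higher were 22.2% of 63 histone genes and 9.68% of all. The median ratio of day 2 to EBs was 1.44 for histone genes and 1.16 for all genes. The largest rises were at Hist1h2ac, from 555 to 1474 bp, at its partner Hist1h2bc, from 555 to 1442 bp, at Hist1h2ak and Hist1h2bn, and at Hist1h2bj, from 769 to 1552 bp. The 2 lower genes were the testis pair Hist1h2aa and Hist1h2ba. Hist2h3b, from 1185 to 891 bp, Hist1h1a and Hist1h4k also had fewer covered bases, by less than 2-fold.

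Of the 14 higher genes, 12 were among the 32 histone genes with more than 25% of their 32-base words repeated elsewhere in the genome. Among the 35 histone genes with fewer repeats 2 were higher (5.71%), Hist1h2ab and Hist1h2bh, near the 6.54% of all genes. The median ratio was 1.27 for these 35 and 1.72 for the repeated ones. How reads that map to several places were handled is not given in the sources used here, and the part of read mapping in the rise was not tested. With windows of 250 bp on each side, 5 of 67 were higher, against 4.85% of all genes.

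From day 2 progenitors to No Dox neurons, the step in which progenitors become neurons, histone genes moved in both directions. Covered bases were more at 30 and fewer at 33 of the 67 genes, against 43.4% and 20.9% of all genes. The median ratio was 1.00, against 1.10 for all genes. No histone gene was higher by 2-fold, against 4.84% of all genes, and 12 were lower (17.9%), against 5.04%. Among genes with a domain in either list, 12 of 63 histone genes and 7.77% of all were lower. Of the 12, 4 went from 35 or 60 bp to 0, namely Hist1h2ap, Hist1h2br and the testis pair. Counting a window as covered from 100 bp left 8 lower genes (11.9%). The other 8 lower genes included Hist1h2ab, from 978 to 304 bp, its neighbour Hist1h3b, from 967 to 409 bp, Hist1h4i, from 1127 to 531 bp, and the pair Hist1h2bk and Hist1h2ah, from 1125 and 1098 to 482 bp each. Hist4h4 went from 1059 to 1712 bp, Hist1h4h from 1211 to 1819 bp and Hist3h2ba from 855 to 1442 bp, each by less than 2-fold. Hist2h2ab and Hist1h2ai had the next largest gains. Of the 12 lower genes, 8 had more than 25% of their words repeated. Among the 35 others 4 were lower (11.4%). These 2 lists come from different lines and have different smallest gaps. Over both steps, from EBs to No Dox neurons, 9 histone genes were higher (13.4%), against 10% of all genes, and 2 were lower, against 8.66%.

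The other 3 comparisons ask what each induced Hox factor did, against No Dox neurons. All share the No Dox list. In iHoxc6 neurons 11 histone genes were lower (16.4%), against 5.92% of all genes, and none was higher, against 3.75%. In iHoxc9 neurons 29 were lower (43.3%, 95% Wilson interval 32.1 to 55.2), against 15.7%, and none was higher, against 1.71%. In iHoxc10 neurons 20 were lower (29.9%), against 10.6%, and 1 was higher, against 1.73%. Among genes with a domain in either list, 49.2% of 59 histone genes and 24.8% of all genes were lower in iHoxc9 neurons. The shares were 18.6 and 9.19% in iHoxc6 neurons and 33.9 and 16.9% in iHoxc10 neurons. The median ratios to No Dox were 0.747, 0.524 and 0.652 for histone genes in iHoxc6, iHoxc9 and iHoxc10 neurons, and 0.850, 0.704 and 0.789 for all genes.

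In iHoxc9 neurons all 59 histone genes with a domain in the No Dox list lost coverage. Over all genes 57.7% lost coverage, while 62.1% had a domain in the No Dox list, so a fall of some size was general. Among histone genes the largest falls were at Hist1h2ai, Hist1h2bb, Hist1h4c, Hist1h3c and Hist3h2ba, the last from 1442 to 393 bp. In iHoxc10 neurons Hist1h2ai, Hist1h2bb, Hist1h4c, Hist1h2bl, from 1439 to 452 bp, and Hist1h2bc, from 1421 to 527 bp, fell most. In iHoxc6 neurons the largest falls were at Hist1h2ai, Hist1h2bl, Hist1h3c, Hist1h2bc and Hist1h1c. There Hist1h2bp and Hist1h2an, a divergent pair, went from 547 to 895 and 855 bp, and Hist1h1b from 834 to 1097 bp, each by less than 2-fold. Among genes with few repeats the iHoxc9 share was similar: 15 of 35 such genes were lower (42.9%), with a median ratio of 0.513. The iHoxc6 value dropped to 3 of 35 (8.57%). When each list was reduced to its widest domains so that all held the same number of domains, 28 of 67 histone genes were lower in iHoxc9 neurons, against 13.7% of all genes. This setting removes narrow domains and does not equalize the bases that the lists cover.

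**Figure D4:**
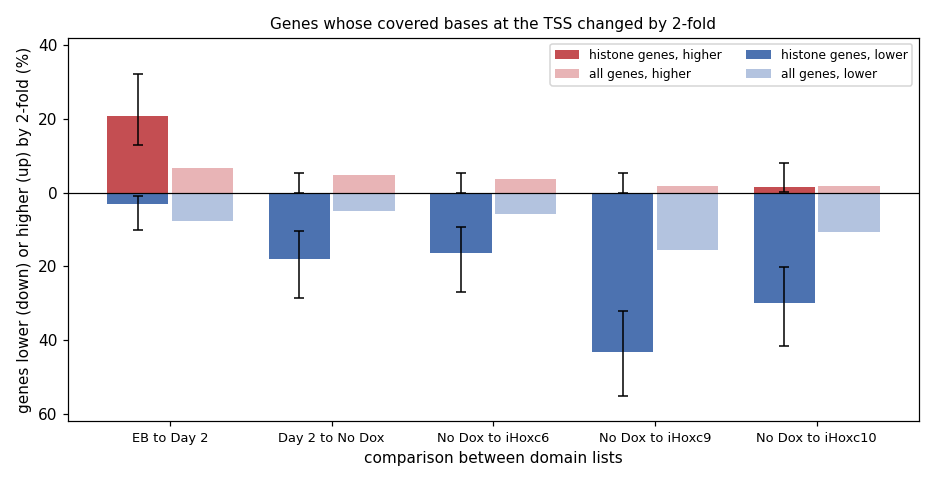
Percent of genes lower (downward bars) or higher (upward bars) by 2-fold in covered bases at the TSS (y axis) for 5 comparisons between domain lists (x axis), in histone genes (dark) and all protein-coding genes (pale), with 95% Wilson intervals over the 67 histone genes. The dark downward bars reach 16.4, 43.3 and 29.9% in the iHoxc6, iHoxc9 and iHoxc10 comparisons, beyond the pale bars at 5.92, 15.7 and 10.6%.

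Against day 2 progenitors in place of No Dox neurons, 24, 39 and 28 histone genes were lower in iHoxc6, iHoxc9 and iHoxc10 neurons, against 5.96, 13.8 and 9.83% of all genes, and none was higher, against 3.59, 1.75 and 1.75%. The histone genes were therefore lower in iHoxc9 neurons against either reference, although the 2 references differ in day and in line. With windows of 250 bp on each side the counts against No Dox fell to 4, 10 and 3 of 67, against 4.54, 9.32 and 7.03% of all genes, so the calls by 2-fold rested largely on bases farther from the TSS.

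Promoter letters did not run evenly with these falls. Over all genes, 15.7% were lower in iHoxc9 neurons than in No Dox neurons. Of the 14 genes with an octamer in the RefSeq promoter, 4 were lower in iHoxc9 neurons, with a median ratio of 0.791 over the 12 covered in both lists. The testis pair, which also has the octamer, had 0 bp in both lists and could not be called lower. Of the 48 without it, 23 were lower, with a median ratio of 0.474. With GTCCGC 13 of 20 were lower, and without it 14 of 42. With TATAAA the counts were 16 of 30, and without it 11 of 32. All octamer promoters belong to H2A and H2B genes, whose pairs share their values. Of the 20 GTCCGC promoters, 9 belong to H4 genes, so letters and class are mixed and these counts are a description.

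Outside the histone windows the clusters were mostly closed. In the stretch of 18 Hist1 genes from Hist1h2bl to Hist1h2br, 121.8 kb long, the windows make up 20.2% of the sequence but held 84.7 to 89.6% of the covered bases. In the 91.5 kb from Hist1h4h to Hist1h1e they make up 25.1% and held 77.1 to 87.2%. In the 82.9 kb from Hist1h2ac to Hist1h1a they make up 25.0% and held 89.7 to 93.8%. In the Hist2 cluster of 50.3 kb they make up 26.0% and held 93.0 to 99.0%. The share of sequence covered from Hist1h2ac to Hist1h1a was 9.75% in EBs, 14.3% in day 2 progenitors and 13.8% in No Dox neurons. It was 9.16, 5.82 and 7.54% in iHoxc6, iHoxc9 and iHoxc10 neurons.

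Genes of the same pathway were counted in the same way. Of 11 replacement histone genes, which are expressed outside S phase, 10 had a domain in every list, H3f3b being the exception. None was lower by 2-fold in any induced group, against 5.92, 15.7 and 10.6% of all genes in iHoxc6, iHoxc9 and iHoxc10 neurons. Their median ratio in iHoxc9 neurons was 0.671. H3f3a, which encodes a replacement H3, had 1227 bp in EBs, 1934 bp in No Dox and 1283 bp in iHoxc9 neurons. All 11 histone chaperone genes were accessible in every list and none was lower, with a median ratio of 0.839 in iHoxc9 neurons. Of 23 genes for histone transcription and mRNA processing, 3 were lower in iHoxc9 neurons, namely Gon4l, from 247 to 0 bp, Lsm11, from 957 to 402 bp, and Ncbp2, from 946 to 468 bp. Lsm11 belongs to the U7 particle that cleaves histone messages, and Ncbp2 to the cap-binding complex. Npat, which encodes the coactivator of histone genes, had 1536 bp in No Dox and 1120 bp in iHoxc9 neurons. Of 18 S phase genes, 4 were lower in iHoxc9 neurons and none in iHoxc6 or iHoxc10 neurons. They were Mcm2, from 957 to 452 bp, Cdc6, from 745 to 252 bp, Cdt1, from 1349 to 646 bp, which all act in replication licensing, and Tyms, a thymidylate synthesis gene, from 371 to 112 bp. The 29 of 67 histone genes lower in iHoxc9 neurons stand beside 4 of 18 and 3 of 23 in these lists and 15.7% of all genes. Among genes with a domain in the No Dox or the iHoxc9 list, 24.8% were lower, and all 18 S phase genes had a domain in every list.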

How the data were processed

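ATAC-seq was performed on 50000 cells per sample. According to the methods of the study and its processing notes, paired-end reads were mapped to mm10 with Bowtie2 (2.2.2), and accessible domains were defined with DomainFinder. Picard (2.8.2) is named without a role, and thresholds are not given. The deposited lists hold domain starts and ends in bp, 1 list per group from both replicates. The sources do not say from which number starts are counted, which leaves 1 bp open in every position. The name of the No Dox list gives day 6 and a p-value limit, its label gives day 4, and the label was followed.

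Domains on the 19 autosomes and both sex chromosomes were intersected with windows of 1 kb on each side of the TSS (GENCODE M21), and covered bases were summed. A gene was called higher or lower between lists when its covered bases differed by at least 2-fold, a gene covered in 1 list alone included. All 21938 genes were computed alike. Words of 32 bases were counted over both strands of the genome. Code was tested on simulated domains (4007 checks, 0 differences). Genes named were those lacking a domain in some list, the 5 with the highest mean, and per comparison the 5 largest rises and falls, and list genes called. Hist1h1e, Hist1h3i, Hist1h4d, H3f3a and Npat were also named after their values were seen. The genes and lists were chosen with earlier results of these data known. Python 3.11.15, NumPy 2.4.6, SciPy 1.17.1, statsmodels 0.14.6 and Matplotlib 3.10.9 were used. Protein sequences were not used here.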

Additional observations from a re-analysis of the deposited data

How the results depend on the processing

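The share of histone genes with a domain stayed within 1.5-fold of its value in all 72 combinations of list and alternative setting. Median covered bases left their interval in 19 of 72. With 250 bp windows the medians were 351, 449, 453, 374, 288 and 343 bp in EBs, day 2, No Dox, iHoxc6, iHoxc9 and iHoxc10, and with 5 kb windows 1422, 1733, 1869, 1325, 850 and 1088 bp. With overlapping windows merged into 38 loci they were 1175, 1305, 848.5, 563 and 720 bp in the last 5 lists. Without genes over 25% repeated they were 747 bp in EBs and 861 bp in iHoxc6. In every setting the iHoxc9 median was the lowest.

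Shares of genes changed by 2-fold left a 1.5-fold range in 27 of 136 combinations. From EBs to day 2 the share higher was 41.8% with a fold of 1.5, 7.46% with 250 bp and 13.4% with 5 kb windows and 5.71% without repeated genes, and the share lower was 5.71% without repeated genes and 0% without testis histones. From day 2 to No Dox the share higher was 7.46% with a fold of 1.5 and 1.49% with 250 bp windows or with domains of at least 150 bp. The share lower was 10.5% with merged windows, 8.96% with 250 bp windows and 11.4% without repeated genes. For iHoxc6 the share lower was 38.8% with a fold of 1.5, 35.8% against progenitors, 5.97% with 250 bp windows and 8.57% without repeated genes, and the share higher was 2.99% with a fold of 1.5 and 1.49% with 250 bp windows. For iHoxc9 the share lower was 14.9% with 250 bp windows. For iHoxc10 the share lower was 49.3% with a fold of 1.5 and 4.48% with 250 bp windows, and the share higher was 2.99% with a fold of 1.5, 2.63% with merged windows and 0% against progenitors, with 250 bp or 5 kb windows and without repeated genes. The cause of these shifts was not tested, beyond what each setting does by its construction. Over all genes, the shares lower with a fold of 1.5 were 13.8, 29.3 and 20.6% for iHoxc6, iHoxc9 and iHoxc10, and with 250 bp windows 4.54, 9.32 and 7.03%, so that for iHoxc10 the histone share fell below that of all genes. The share of all genes higher from EBs to day 2 was 14.5% with a fold of 1.5, 4.85% with 250 bp and 8.52% with 5 kb windows. Windows at the coding start and gaps of up to 200 bp closed in every list, both chosen after seeing the data, moved no share or median out of range.

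No paired analysis was possible because each list was made from both replicates, and no fit without a replicate was run for the same reason. Depth is unknown, and a missing domain shows only that none was listed.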
